A study of Mus musculus with 8 samples.

Results

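The lysyl oxidase family of the mouse consists of Lox, Loxl1, Loxl2, Loxl3 and Loxl4, and its RNA was followed in pre-iPSCs cultured with and without vitamin C. The members were found by their gene symbols in the array's annotation, and the brightest probe set on average stood for a gene that had several. Of the 5 members, 4 had a probe set of their own among 19938 genes tested. The only probe set of Loxl2 is annotated also to the predicted gene Gm21451, and no value is given for Loxl2. The cells were a clone of MaF pre-iPSCs, named MaF pre-iPSC9P2, that is, cells in which reprogramming to pluripotency had begun and stalled. All cultures were kept on feeders in mESC (mouse embryonic stem cell) medium, which from day 2 held either no vitamin C (untreated) or vitamin C at 50 µg/ml. RNA came from 1 array for each treatment on days 3, 4, 5 and 6, after trypsin treatment and removal of the feeder cells, which gave 4 untreated arrays and 4 with vitamin C. All arrays come from 1 clone, and whether the days are separate cultures is not stated, so the spread behind every p-value is that between these arrays and may be technical.

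Lysyl oxidases are secreted enzymes that use copper to oxidise lysine side chains of collagen and elastin, and the aldehydes formed then link neighbouring chains into stable fibres. Lox and Loxl1 carry a propeptide that is cut off outside the cell by proteases of the Bmp1 group. Loxl2, Loxl3 and Loxl4 instead carry scavenger receptor cysteine-rich domains before the same catalytic domain. Fibroblasts and smooth muscle cells are known as rich sources of Lox, and collagen in turn needs vitamin C for its hydroxylation.

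No array stood apart in its overall signal, with median log2 values from 4.33 to 4.40, and none repeated another. The label of the cells was checked against markers. Of 10 markers of pluripotent cells, Pou5f1 lay between 11.9 and 12.1 on all 8 arrays. In untreated cells Dppa2 (3.03 to 3.51), Esrrb (3.14 to 3.36) and Zfp42 (2.96 to 4.09) were under the array medians. Untreated values above the medians were those of Tdgf1 (8.95 to 10.6), Dppa5a (6.48 to 7.59) and Fgf4 (6.78 to 6.92). So were those of Utf1 (5.75 to 6.88), Nanog (5.53 to 6.77) and Sox2 (4.93 to 5.22). With vitamin C 4 of the 10 rose (Dppa5a by 3.44, Dppa2 by 3.33, Nanog by 1.79 and Utf1 by 1.10), beside 0.537% of all genes. Of the 10, 0 fell, beside 0.216% of all genes. Above 0 lay 9 of the 10, while 51.8% of all genes lay below 0. Of 3 measured blood cell markers, Ptprc (2.56 to 3.30) and Cd3e (3.47 to 3.93) were under the medians. Cd68, a macrophage marker also found in other cells, ran from 5.72 to 8.10. Its slope was 0.47 per day without vitamin C (limma adjusted p = 0.149) and 0.79 per day with it (adjusted p = 0.0102). Neither its vitamin C difference of 0.36 (adjusted p = 0.424) nor the change of that difference per day (adjusted p = 0.597) passed. Across the 18 fibroblast markers the mean log2 value ran from 6.11 to 6.91 without and from 5.97 to 6.47 with vitamin C. In RNA pooled from all cells left after removal of the feeder cells, fewer cells of a type and less RNA per cell cannot be told apart.

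Lox, the founding member of the family, was lower with vitamin C on every day. Untreated cells had log2 values of 8.73, 8.64, 7.62 and 6.75 on days 3 to 6. Cells with vitamin C had 7.43, 7.37, 6.38 and 5.94 on the same days. The value with vitamin C on day 3 was thus already below the untreated value of day 5, and the 2 groups overlapped only because the untreated culture of day 6 had dropped to 6.75. The differences were -1.31, -1.27, -1.24 and -0.81 on the log2 scale, on which a difference of 1 is a 2-fold change. Their mean was -1.16 ± 0.12 (moderated SE from limma, 4 pairs of arrays), which is 2.23-fold lower. Lox was singled out in the family for the size of this fall, so its passing the test (limma, adjusted p = 0.00721 over all genes) is a description and no independent support. Without day 4 the mean was -1.12 (adjusted p = 0.133), without day 5 it was -1.13 (adjusted p = 0.0633), and leaving out either array of these days gives the same values. Over all genes only 3 passed without day 4 and 9 without day 5, against 150 on all days. Lox passed in limma without day 3 (-1.11, adjusted p = 0.00973) and without day 6 (-1.27, adjusted p = 0.00428).

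**Figure D1:**
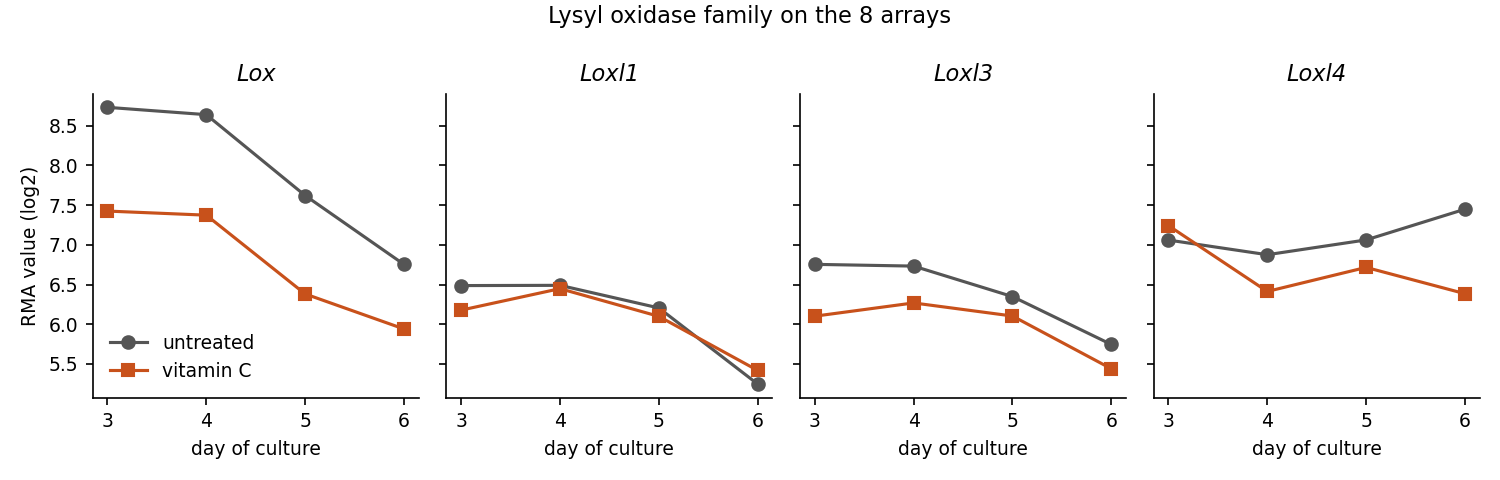
Log2 RMA values (vertical axis) of Lox, Loxl1, Loxl3 and Loxl4 on days 3 to 6 (horizontal axis), with 1 array per point, grey circles for untreated cells and orange squares for cells with vitamin C. Lox runs from 8.73 to 6.75 without and from 7.43 to 5.94 with vitamin C, the courses of Loxl1 lie nearly on each other, and those of Loxl4 move apart after day 3; heights are not comparable between genes.

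Loxl1, which is known for its part in elastic fibre assembly, showed no called difference with vitamin C. Its untreated values were 6.49, 6.49, 6.21 and 5.25 on days 3 to 6. With vitamin C they were 6.18, 6.45, 6.10 and 5.42. The highest 3 of the 8 values held both treatments, and so did the lowest 2, with day 6 at the bottom in each. The mean difference was -0.07 ± 0.11 (SE; 95% confidence interval -0.33 to 0.19 with limma's adjusted p = 0.87). Of the daily differences, 3 were below 0 and that of day 6 was 0.17. The confidence interval of the mean difference still holds a fall of up to 0.33.

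Loxl3, an oxidase with scavenger receptor domains, lay lower with vitamin C on each day. Untreated cells had 6.75, 6.73, 6.35 and 5.75 on days 3 to 6. Cells with vitamin C had 6.10, 6.27, 6.10 and 5.44. Every value with vitamin C lay below the untreated value of its day, and the treatments overlapped because untreated day 6 fell under the first 3 days with vitamin C. The mean difference was -0.42 ± 0.11 (SE), or 1.33-fold lower, and did not pass over all genes (limma adjusted p = 0.149, unadjusted p = 0.00462). Its 95% confidence interval, not adjusted for the number of genes, ran from -0.67 to -0.16. Lox and Loxl3 were the 2 of 4 members with lower values on all 4 days, as were 11.1% of all genes.

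Loxl4, the other measured member with these domains, had a course of its own. Untreated cells had 7.06, 6.88, 7.06 and 7.45 on days 3 to 6. Cells with vitamin C had 7.24, 6.41, 6.72 and 6.39. The array with vitamin C was the higher of the pair on day 3 and the lower on days 4, 5 and 6, and the highest of all 8 values was that of untreated cells on day 6. The differences were 0.18, -0.46, -0.35 and -1.06, with a mean of -0.42 ± 0.18 (SE, limma adjusted p = 0.366, unadjusted p = 0.0407), so the mean did not pass. It was -0.21 without day 6 and -0.62 without day 3. A further probe set of Loxl4, the dimmer of the 2 on average, gave differences of -0.01, 0.05, -0.51 and -1.18 on the same days. Both probe sets thus had their largest difference on day 6, and they read the same 8 RNA samples.

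Over the family, 1 of the 4 measured members fell with vitamin C, 0 rose and 3 did not pass, against 0.216% of all genes that fell and 0.537% that rose. In each of the 4 members the values of the 2 treatments overlapped. Every array with vitamin C lay below every untreated one in only 2.61% of all genes, so the lack of such a gene among 4 members says nothing on the family. The median of the 4 mean differences was -0.42, beside -0.01 for all 19938 genes. Since the family was proposed with the fall of Lox known, the count says nothing on the family by itself.

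**Figure D2:**
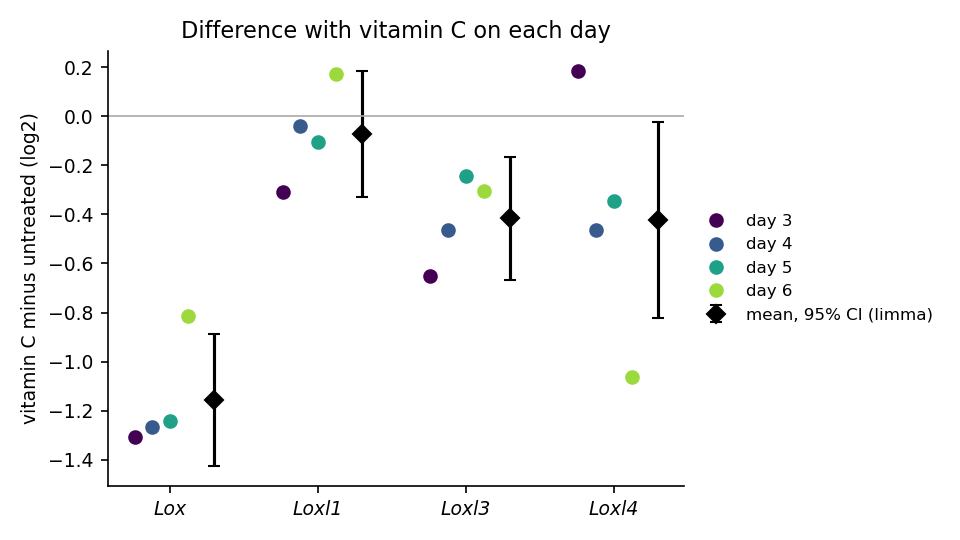
Difference between the arrays with and without vitamin C (log2, vertical axis) for each member, with 1 coloured point per day and a black diamond for the mean with limma's 95% confidence interval. The points of Lox lie between -1.31 and -0.81, those of Loxl3 between -0.65 and -0.24, those of Loxl1 on both sides of 0, and those of Loxl4 spread from 0.18 on day 3 to -1.06 on day 6.

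Set beside Lox within each day, the other members differed in how steadily they stood apart. Lox was lower relative to Loxl1 by nearly the same amount throughout, with values of -0.997, -1.22, -1.13 and -0.98 on days 3 to 6 for the difference of Lox minus that of Loxl1 (mean -1.08, SD 0.11). Relative to Loxl3 the values were -0.65, -0.80, -0.99 and -0.51 (mean -0.74, SD 0.21). Relative to Loxl4 they were -1.49, -0.80, -0.89 and 0.25 (mean -0.73, SD 0.72). Among the 4 measured members the fall of Lox was therefore the largest on days 3, 4 and 5, while on day 6 that of Loxl4 was larger. Because Lox was chosen for its fall, these values are a description with no test.

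Lox also had the steepest decline in time among the measured members. Without vitamin C, it fell by 0.70 ± 0.10 per day (log2 slope, SE, limma adjusted p = 0.00805), the only member that passed, beside 0.968% of all genes that fell. With vitamin C it fell by 0.54 ± 0.10 per day (adjusted p = 0.00956), again the only member, beside 3.39% of all genes. From day 3 to day 6 the Lox value dropped by 1.98 in untreated cells and by 1.48 in cells with vitamin C. Most of this drop came after day 4, as both treatments had nearly equal values on days 3 and 4. Without day 6 neither slope of Lox passed (-0.56 per day with adjusted p = 0.506 untreated, -0.52 with adjusted p = 0.19 with vitamin C), and leaving out the day 6 array of the treatment alone gave adjusted p-values of 0.442 and 0.155.

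The slopes of the remaining members did not pass. Loxl1 had -0.40 ± 0.11 per day without vitamin C (adjusted p = 0.103) and -0.26 ± 0.11 with it (adjusted p = 0.171), with the lowest value of each treatment on day 6. Loxl3 had -0.34 ± 0.09 (adjusted p = 0.0929) and -0.21 ± 0.09 (adjusted p = 0.17). Without day 6 these slopes were -0.14 and -0.039 for Loxl1 and -0.20 and 0.000945 for Loxl3. Without day 3 they were steeper, -0.62 and -0.51 for Loxl1 and -0.49 and -0.41 for Loxl3, and none passed. The untreated slope of Loxl3 passed when only the day 3 array with vitamin C was left out (adjusted p = 0.0492). Loxl4 had slopes of opposite sign, 0.14 ± 0.09 without (adjusted p = 0.512) and -0.23 ± 0.09 with vitamin C (adjusted p = 0.167). The latter passed without day 4 (-0.28, adjusted p = 0.0441), without its own day 4 array (adjusted p = 0.0436), and with the mean of both probe sets (-0.28, adjusted p = 0.0308), while it was -0.014 without day 3 (adjusted p = 0.961). The untreated slope of Loxl4 was 0.00093 without day 6 and 0.29 without day 3.

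**Figure D3:**
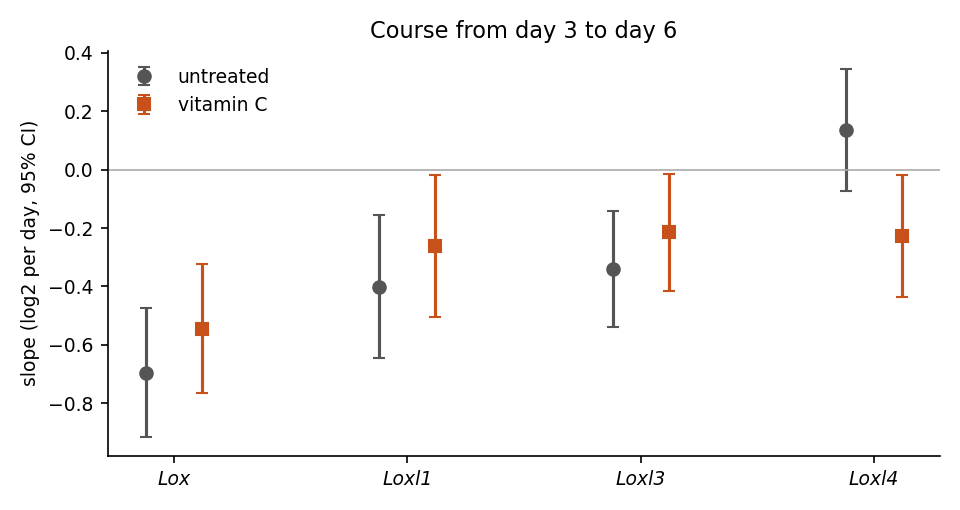
Slope of the log2 value per day from day 3 to day 6 (vertical axis) for each member, grey circles for untreated cells and orange squares for cells with vitamin C, with limma's 95% confidence intervals. Both slopes of Lox lie farthest below 0 (-0.70 and -0.54), and those of Loxl4 have opposite signs (0.14 and -0.23).

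Whether the vitamin C difference itself changed from day 3 to day 6 was tested as an interaction, and 0 of the 4 members passed in limma. Of the 4 members 1, Loxl4, had an unadjusted p under 0.05, as had 2244 of all 19938 genes. The difference of Loxl4 moved by -0.36 ± 0.13 per day (SE, adjusted p = 0.35, unadjusted p = 0.0209), and by -0.15 without the day 3 array with vitamin C to -0.51 without the untreated one. Those of Lox, Loxl1 and Loxl3 moved by 0.15 ± 0.14, 0.14 ± 0.16 and 0.13 ± 0.13 per day, with adjusted p-values of 0.734, 0.786 and 0.755. In this comparison 0.0652% of all genes passed. The 95% confidence interval for Lox ran from -0.16 to 0.46 per day, so both a steady and a shrinking difference lie within it.

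Within each gene, the 8 conditions can be put in order against the residual SD of that gene after treatment and day. For Lox the order from high to low was untreated day 3, day 4 and day 5, then vitamin C day 3 and day 4, then untreated day 6, then vitamin C day 5 and day 6. Neighbours in this order lay within the residual SD of 0.17 for days 3 and 4 of each treatment and beyond it elsewhere. Loxl3 had the same 3 untreated days at the top and vitamin C day 6 at the bottom, with a residual SD of 0.16. For Loxl1 (residual SD 0.16) the vitamin C and untreated arrays were mixed, and the 2 arrays of day 6 stood 0.68 below the rest. For Loxl4, 6 of the 7 steps between neighbours were within the residual SD of 0.25, so most of its order is not settled.

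Of all genes, Actg2 and Myl9 had the course over the 8 arrays that was most like that of Lox. Likeness was measured as the root mean square distance between log2 values after each gene was centred on its own mean over the 8 arrays, and it rests on these arrays alone. The 10 nearest genes were Actg2 and Acta2 (smooth muscle actins), Myl9 (a myosin light chain), Fgf7 (a growth factor of mesenchymal cells), Postn (periostin, a matrix protein), Igfbp7, Ccn4, Pdgfrb (a receptor of fibroblasts and pericytes), Adamts5 (a matrix protease) and Nrp1. Their distances ran from 0.26 for Actg2 to 0.36 for Nrp1, while the median distance of all genes was 0.94. Postn started at 6.82 on day 3 and reached 5.25 on day 6 without vitamin C, and went from 6.02 to 5.00 with it. Myl9 went from 7.62 to 5.62 and from 6.81 to 5.50. Lox itself spanned more than these genes, as its lowest point with vitamin C on day 6 lay farther under its own mean than that of any of the 10. In the same order over all genes Loxl3 took place 125, Loxl1 place 351 and Loxl4 place 5852. With a day left out, 6 of the 10 genes stayed on the list without day 3 or without day 4, and 7 without day 5 or without day 6.

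**Figure D4:**
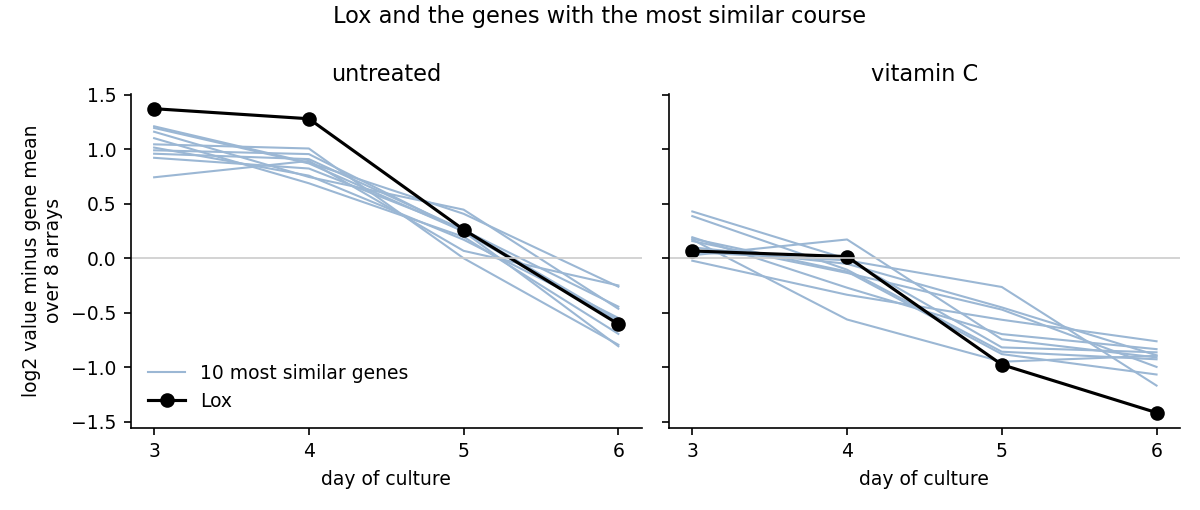
Log2 values minus each gene's mean over the 8 arrays (vertical axis) by day for Lox (black) and the 10 genes with the smallest distance to it (blue lines), untreated on the left and with vitamin C on the right. All 11 genes are lower on day 6 than on day 3 in each treatment, and Lox drops farthest by day 6 with vitamin C.

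The other genes of lysyl oxidase biology were taken from 8 lists with 67 genes, of which 64 were measured. With vitamin C, 5 of them fell, 0 rose and 59 did not pass, beside 0.216% of all genes that fell and 0.537% that rose, and their median difference was -0.27 beside -0.01 for all genes. The 5 were Col5a2, Fbln2, Tgfb3, Zeb1 and Snai2. Without day 4, without day 5, or without any single array of those days, 0 of the 64 passed in limma. Over all genes only 3 passed without day 4 and 9 without day 5, against 150 on all days, so these counts say little on the 64. On all days 32 of the 64 had an unadjusted p under 0.05, as had 2531 of all 19938 genes. Without day 6, 8 of the 64 passed, as did 104 of all genes. Over time 9 of the 64 fell and 1 rose without vitamin C, beside 0.968% and 0.782% of all genes. With vitamin C 8 fell and 3 rose, beside 3.39% and 5.25% of all genes. The change of the vitamin C difference per day passed in 0 of the 64 in limma, beside 0.0652% of all genes. Of the 64, 15 had an unadjusted p under 0.05 for this change, as had 2244 of all 19938 genes. A slope that passed in only 1 treatment was thus not shown to differ from that in the other. Without the untreated array of day 6, 0 of the untreated slopes passed in limma. On all days 30 of the 64 untreated slopes had an unadjusted p under 0.05, as had 3399 of all 19938 genes. Without the vitamin C array of day 3 or of day 6, 1 of the slopes with vitamin C passed. Calls over all genes also varied when a day or an array was left out. They ran from 1 to 530 for the slope without vitamin C and from 167 to 1680 with it.

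Among the 12 substrates of cross-linking, Col5a2, a chain of fibril-forming collagen V, fell by 0.73 ± 0.11 (SE, adjusted p = 0.0297), with differences of -0.51, -0.91, -0.62 and -0.88 on days 3 to 6. The other 11 did not pass, and all 12 lay below 0 (median -0.38), as did 51.8% of all genes. Col1a1 and Col1a2, the chains of collagen I, fell in the course of time: by 0.52 and 0.53 per day without and by 0.32 and 0.31 per day with vitamin C (adjusted p-values from 0.00431 to 0.0307). Elastin (Eln), the other classic substrate, had a difference of -0.16 with vitamin C (adjusted p = 0.75).

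Among 10 genes of propeptide cleavage and matrix partners, 0 passed for vitamin C in limma. Of the 10, 7 had an unadjusted p under 0.05, as had 2531 of all 19938 genes. Fbln5, which ties Loxl1 to elastic fibres, had -0.86 ± 0.16 (adjusted p = 0.0546), and Postn had -0.80 ± 0.15 (adjusted p = 0.0588). Fbln5 stood at 6.86, 6.89, 6.54 and 5.71 untreated and at 6.21, 5.61, 5.39 and 5.37 with vitamin C, so its pair of day 6 lay closest. Over time without vitamin C, Postn, Thbs1 and Tll1, a protease of the Bmp1 group, fell by 0.54, 0.44 and 0.68 per day. With vitamin C, Postn and Pcolce2, an enhancer of procollagen cleavage, fell by 0.35 and 0.49 per day. Thbs1 and Tll1 had slopes of -0.20 and -0.37 with vitamin C (limma adjusted p = 0.14 and 0.0938). Pcolce2 had -0.16 without it (adjusted p = 0.259).

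Of 11 genes of elastic fibres and microfibrils, Fbln2 fell by 0.81 ± 0.10 with vitamin C (adjusted p = 0.0161), from 9.10, 9.11, 8.70 and 8.42 untreated to 8.42, 8.18, 7.94 and 7.56. Its difference was nearly the same on each day, as was that of Lox on days 3 to 5. Over time without vitamin C, Ltbp2 and Mfap5 fell by 0.57 and 0.42 per day and Ltbp4 rose by 0.30 per day. With vitamin C, Fbln2 and Ltbp1 fell by 0.28 and 0.24 per day. The untreated slope of Fbln2 was close to this, at -0.25 (limma adjusted p = 0.082), while that of Ltbp1 was 0.03 (adjusted p = 0.881).

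Of 6 genes that supply the enzymes with copper, 0 passed for vitamin C in limma. Of the 6, 1 had an unadjusted p under 0.05, as had 2531 of all 19938 genes. Above 0 lay 5 of the 6 (median 0.10), while 51.8% of all genes lay below 0. Atp7b, a copper pump, had 0.36 ± 0.14 (adjusted p = 0.319) and rose by 0.32 per day in cells with vitamin C (adjusted p = 0.0182). Atp7a, the pump known to load lysyl oxidases in the secretory pathway, was the member below 0, with -0.21 ± 0.14 (adjusted p = 0.601), and it was lower with vitamin C on 3 of the 4 days. The amine oxidases Aoc1, Aoc2 and Aoc3, copper enzymes of another family, did not pass either (0 of 3, with 1 unadjusted p under 0.05), and Aoc1 had 0.40 and Aoc3 0.26.

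Of 5 genes of lysine hydroxylation and glycosylation in collagen, 0 passed for vitamin C in limma. Of the 5, 1 had an unadjusted p under 0.05, as had 2531 of all 19938 genes. Plod1, a lysyl hydroxylase, had -0.41 ± 0.13 (adjusted p = 0.231) and the galactosyltransferase gene Colgalt1 had -0.19. Plod2, the hydroxylase of collagen telopeptides, rose by 0.32 per day in cells with vitamin C (adjusted p = 0.0149). Its values there were 7.77, 8.01, 8.48 and 8.67.

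Of 12 genes of TGF-beta and hypoxia signals known to act on Lox, the ligand gene Tgfb3 fell with vitamin C by 0.70 ± 0.12 (adjusted p = 0.0392) and 11 did not pass (median -0.22). Its values were 5.72, 5.62, 5.17 and 4.57 untreated and 5.19, 4.72, 4.27 and 4.11 with vitamin C, and it also fell by 0.39 and 0.37 per day. Among 5 genes of the Snail and Zeb circuit with which Loxl2 and Loxl3 are known to act, Zeb1 and Snai2 fell by 0.81 ± 0.11 and 0.67 ± 0.11 (adjusted p = 0.0176 and 0.0369). Snai1 itself had -0.17 ± 0.16 (adjusted p = 0.738). Over time Zeb2 fell by 0.32 per day without vitamin C, and Cdh1, the epithelial cadherin that Snail proteins repress, rose by 0.34 per day with it. In the other treatment the slopes had the same sign. They were -0.12 for Zeb2 with vitamin C (limma adjusted p = 0.23) and 0.24 for Cdh1 without it (adjusted p = 0.102).

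**Figure D5:**
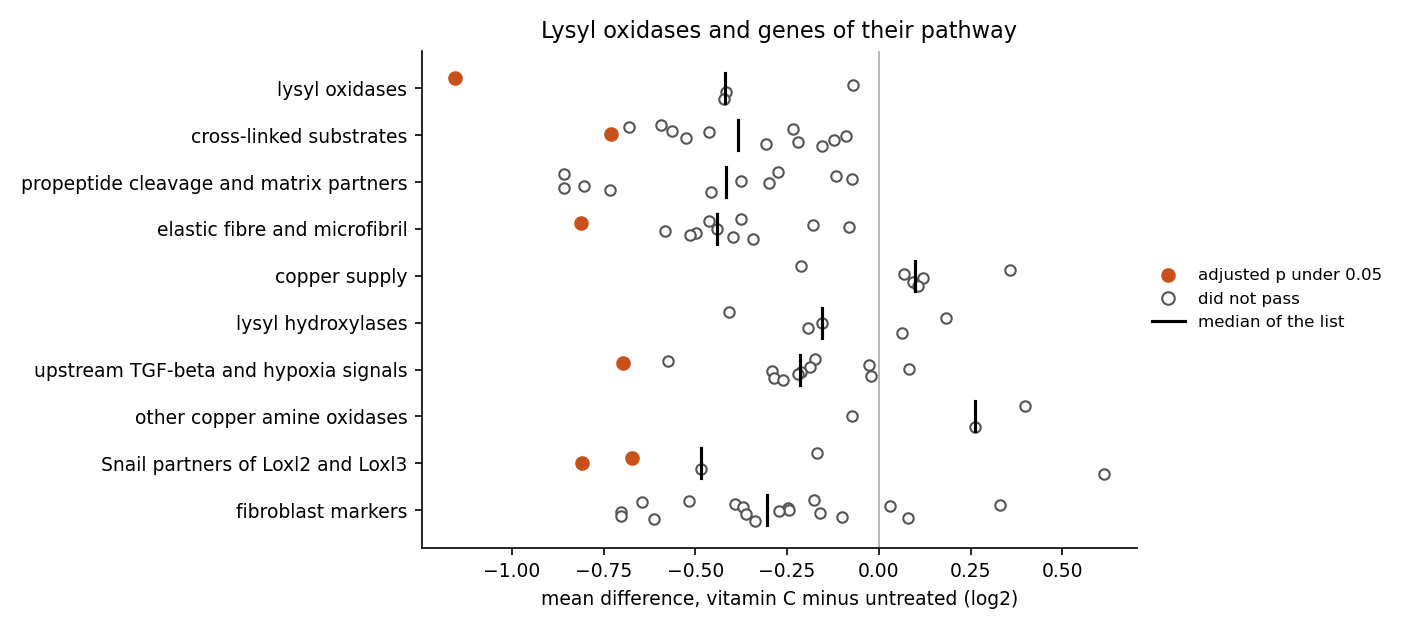
Mean difference over the 4 days between cells with and without vitamin C (log2, horizontal axis) for each gene of the family, of the 8 pathway lists and of the fibroblast markers, with filled orange points for adjusted p under 0.05, open points for genes that did not pass and a black bar at the median. Lox lies farthest to the left at -1.16, all substrates lie below 0, and copper supply has its median at 0.10.

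The levels of fibroblast and smooth muscle markers are given beside those of the family. Of 18 fibroblast markers, 0 passed for vitamin C in limma and 10 had an unadjusted p under 0.05, as had 2531 of all 19938 genes. The smallest p-values were those of Fstl1 (-0.70 ± 0.13, adjusted p = 0.0505) and Ddr2 (-0.70 ± 0.14, adjusted p = 0.0699). Of these 18, 15 lay below 0, beside 51.8% of all genes, and 3 lay above 0 (Lum with 0.33, Gas1 with 0.08 and Fap with 0.03), with a median of -0.30. The log2 of their summed level ran from 11.8 to 12.2 without and from 11.4 to 11.7 with vitamin C. Their median difference was -0.39, -0.58, -0.29 and -0.17 on days 3 to 6, smallest on day 6, as for Lox. Those of cross-linking substrates (-0.21), propeptide cleavage and matrix partners (-0.20), elastic fibre genes (-0.22) and smooth muscle markers (-0.55) were also smallest on day 6. Those of the TGF-beta and hypoxia genes (-0.09) and the Snail and Zeb circuit (-0.46) were smallest on day 5. That of the lysine hydroxylation genes (-0.02) was smallest on day 3. Over time 8 of the 18 fibroblast markers fell without and 4 fell with vitamin C, beside 0.968% and 3.39% of all genes. Pdgfrb fell by 0.59 and 0.34 per day. Of 6 smooth muscle markers, Acta2, Actg2 and Tagln fell with vitamin C, beside 0.216% of all genes. All 6 lay below 0 (median -0.76), as did 51.8% of all genes. The summed level of the 6 ran from 9.59 to 10.96 untreated and from 8.98 to 10.1 with vitamin C. With the mean of the fibroblast markers in place of day in the model, the difference was -0.36 for Lox (adjusted p = 0.477), -0.02 for Loxl3 (adjusted p = 0.973), -0.46 for Loxl4 (adjusted p = 0.501) and 0.40 for Loxl1 (adjusted p = 0.381). With day left out and no marker mean, Lox already did not pass in limma (adjusted p = 0.509). The marker mean was itself lower with vitamin C on each day, and Pdgfrb is also among the 10 genes nearest to Lox. This model therefore cannot separate the markers from vitamin C. The mean of the 10 pluripotent cell markers was higher with vitamin C by 0.83, 1.45, 1.53 and 1.73 on days 3 to 6. The part of these cells in the values of the family was not tested.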

How the data were processed

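The table deposited by the authors holds log2 values of 28853 probe sets on 8 Affymetrix whole-transcript arrays, for which the submitters' processing notes name RMA and Partek. Versions and probe set definitions are not stated in the labels. A log2 scale was inferred from the highest value, 13.8, which lies between the natural log (11.1) and the log2 (16.0) of the largest 16-bit reading. Probe sets with 1 gene symbol in the platform annotation (21789) were used, with symbols updated through gene identifiers to RefSeq (GRCm38.p6). No sequences are printed.

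Tests were two-sided and used lmFit and eBayes of limma 3.58.1 (R 4.3.3) on 19938 genes, with Benjamini-Hochberg adjustment over all of them, and 0.05 was the threshold. The effect of vitamin C was taken as the coefficient of treatment in a model that also held day as a factor. Slopes and interaction came from 1 model with a slope on day per treatment. The arrays of a day were paired by the day in the labels, and the correlation of their deviations from the mean of each treatment was 0.371 for day 3, 0.18 for day 4, 0.125 for day 5 and 0.475 for day 6. The members, lists and tests were chosen with earlier results of these data known. The genes named were the members, list genes past the threshold (otherwise the 2 with the smallest p) and the 10 genes most like Lox. Besides these, some were named for their role (Eln, Snai1), as marker genes or to complete a count, and were chosen after their values were seen.

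On simulated arrays, the test of vitamin C found 79.1% of changes of 1 and 14.9% of changes of 0.5 (log2), and the interaction 43.9% of changes of 2 over the 3 days. The slope without vitamin C found 26.9% of changes of 1 over the 3 days and 80.3% of changes of 2. With vitamin C the slope found 11.9% and 72.7%. The simulated arrays had independent noise around a flat mean for each gene. They held no other course over the days, so the rates on the real arrays may differ. Figures were drawn with matplotlib 3.10.9. The number of arrays limits the precision.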

Additional observations from a re-analysis of the deposited data

Results flagged for a closer look

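The vitamin C difference of Lox on day 6, -0.81, stood apart from those of days 3 to 5, which lay between -1.31 and -1.24. Its gap to the nearest day was 0.865 of the whole range, above Dixon's 95% critical value for 4 values. Of 12 groups of 4 values examined (untreated arrays, arrays with vitamin C and daily differences of 4 genes) it was the only one past that value, and chance alone passes about 1 in 20 such groups. The untreated Lox value of day 6 had dropped to 6.75. The median difference of the fibroblast markers was also smallest on that day (-0.17). So were those of cross-linking substrates (-0.21), matrix partners (-0.20), elastic fibre genes (-0.22) and smooth muscle markers (-0.55). Further lists had their smallest difference on other days, and a link to Lox was not tested. Without day 6 the mean difference of Lox was -1.27.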

How the results depend on the processing

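Of 320 values of single members under alternatives, 291 kept their direction and their side of the threshold, 12 were no longer called, 6 became called and 11 changed sign. The number of members called for vitamin C was 1, and 0 with day left out (no replicate block, Lox adjusted p = 0.509) and 0 with the mean of the fibroblast markers in place of day. For the slope without vitamin C it was 2, with Loxl3 added, with the trend and robust options (adjusted p = 0.034) and at a threshold of 0.1, and for the slope with vitamin C it was 2 with averaged probe sets. Leaving out a day or an array gave 0 to 1 members for vitamin C, 0 to 2 for each slope and 0 for the interaction. The replicate block in the interaction (day as a factor) left 0 members called. Values that changed sign, none of them called, were those of Loxl1 for vitamin C (0.40 with the marker mean, -0.15 to 0.00795 when days or arrays were left out), of Loxl3 for the slope with vitamin C (-0.41 to 0.000945) and of the interaction for Lox (-0.021 to 0.40), Loxl1 (-0.12 to 0.36) and Loxl3 (-0.073 to 0.34). The causes were not tested. Over all genes, calls for vitamin C ran from 3 without day 4 to 384 at a threshold of 0.1 (150 in the report), for the interaction from 0 to 80 (13), for the slope without vitamin C from 1 to 782 (349) and with it from 167 to 2917 (1722). Pathway genes called for vitamin C were 5, and 13 with trend and robust options or day as a number.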
